A study of Caenorhabditis elegans with 8 samples.

Results

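The loss of daf-16 was examined in whole young adult Caenorhabditis elegans that grew on Escherichia coli lacking hns. Both libraries of daf-16 mutants on this food (d16_hns) were set against both libraries of wild-type N2 worms on the same food (N2_hns). Every gene that reached 1 FPKM in 2 or more of these 4 libraries was included, where FPKM are fragment counts scaled by transcript length and library size. This gave 14025 genes of the 41560 rows of the deposited table. The rule did not use the difference between the genotypes. A gene under 1 FPKM in both libraries of 1 genotype could, however, enter only through the other genotype.

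The mutants carry the allele mgDf50, known as a deletion that removes much of the gene, and the wild-type worms are the Bristol strain N2. All worms were kept at 20 °C on NGM plates (nematode growth medium) and taken as whole bodies. The bacterial food was BW25113 without hns, which encodes H-NS, a protein that silences many bacterial genes. The same genotypes on unmodified BW25113 (d16_BW and N2_BW) make up the rest of the series, with 2 libraries in each of 4 groups. Whether the worms of replicate libraries were grown apart is not stated in the labels, so the spread behind each p-value may be technical only. Nor do the labels say how often the mutant strain was backcrossed, and 1 mutant strain was used.

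DAF-16 is the worm's FOXO transcription factor. When the insulin receptor DAF-2 is active, the kinase cascade below it keeps DAF-16 phosphorylated and out of the nucleus. When that signal is low, DAF-16 enters the nucleus and turns on genes for stress defence, metabolism and resistance to pathogens, while another set of genes falls. Its activity in the intestine is well known to affect lifespan, and bacterial food is one of the cues studied for its effect on it. All values come from RNA of whole animals, so fewer cells of a type and less RNA per cell cannot be told apart.

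Replicate 1 of N2_hns stood apart from the other libraries. On the first principal component, which held 24.7% of the variance of all 8 libraries, it lay at 53.5, its partner at 20.1 and the other 6 libraries at 12.58 or lower. FPKM summed to 2243750 and 2311730 in d16_hns and to 2128460 and 2322860 in N2_hns, and 13931 and 13572 genes in d16_hns and 14099 and 13711 genes in N2_hns reached 1 FPKM. The table holds no counts, so the depth behind a value was not used and no counting interval is given. Markers of the main tissues of an adult hermaphrodite were present in every hns-food library. The 6 vitellogenins, the yolk proteins made in the adult intestine, summed to 10020 and 10184 FPKM in d16_hns and to 8600 and 9655 FPKM in N2_hns. The 34 germline markers summed to 3572 and 3903 FPKM in d16_hns and to 3572 and 3869 FPKM in N2_hns.

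The daf-16 transcript differed clearly between genotypes. Its level was 17.7 and 15.8 FPKM in d16_hns, against 75.6 and 69.9 FPKM in N2_hns. Both mutant libraries lay far below both wild-type libraries, and the same held on BW25113 food. The level was 4.34-fold lower in the mutant, with a difference of -2.05 ± 0.08 (SE) on the log2(FPKM + 1) scale and a limma adjusted p of 0.00032. Which exons carry the signal left in the mutant was not tested, and daf-16 overlaps 6 small annotated genes in the reference annotation.

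A narrow set of genes differed between the genotypes on hns food. Of the 14025 genes, 34 (0.242%) passed the threshold of an adjusted p under 0.05, 24 higher in the mutant (0.171%) and 10 lower (0.0713%), by a moderated test in limma adjusted over 14564 genes. At an unadjusted p under 0.05, 1121 genes (7.99%) passed, 660 higher (4.71%) and 461 lower (3.29%). The median difference was -0.0048 on the log2 scale, with quartiles of -0.12 and 0.089, and 51.5% of the genes lay below 0. A total of 183 genes lay above 1 and 163 below -1. Of the 34 genes, 16 were listed at 0 in both hns-food libraries of 1 genotype, so they entered only through the other genotype. Counted by length, 16 of the 34 were short RNAs of under 300 nt or without a match in the reference annotation. A fit without such transcripts, over 13536 genes, called 24 of 13192 genes (0.182%), 17 higher (0.129%) and 7 lower (0.0531%). The 18 longer genes of the first count were all among these 24. The groups overlapped in 0 of the 24. With 2 libraries a group, passing the threshold makes that likely, so lack of overlap adds little for called genes. The counts rested on few libraries. The first count was 12 and 11 without replicate 1 or 2 of d16_hns, 24 without replicate 1 of N2_hns and 15 without replicate 2 of N2_hns. Of the 18 longer genes, daf-16 was the only one that passed in all 4 of these fits. With short transcripts left out, the count of 24 was 1, 2, 2 and 7 in the same order.

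**Figure D1:**
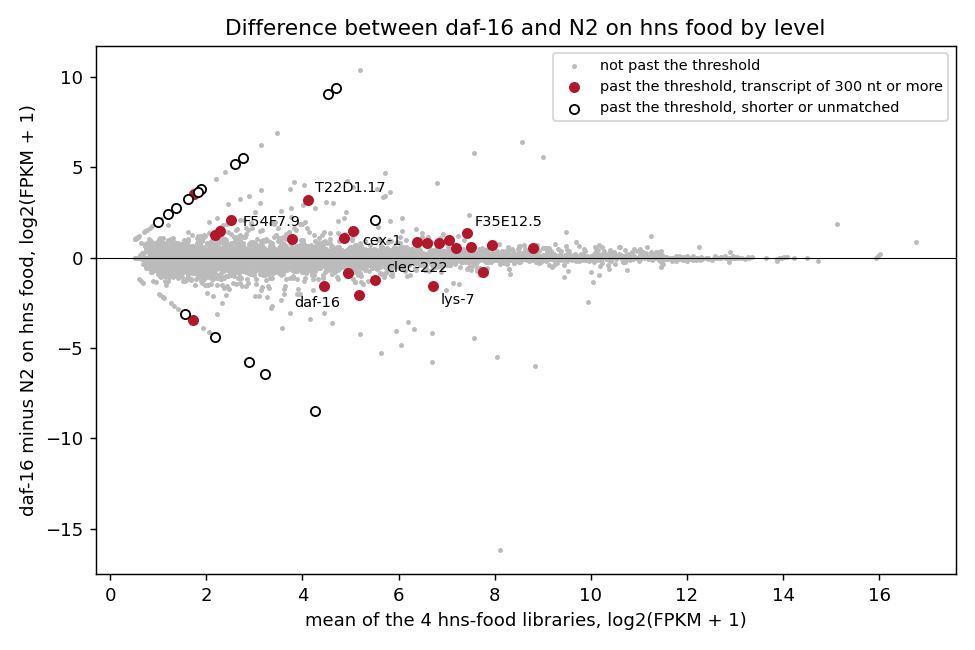
Each point is a gene; the x axis is its mean level over the 4 hns-food libraries and the y axis the difference of d16_hns minus N2_hns, both in log2(FPKM + 1). Red points, transcripts of 300 nt or more past the threshold in either fit, lie mostly between -2.05 and 2.06, while open circles are shorter or unmatched transcripts. Genes listed at 0 in both hns-food libraries of 1 genotype form 2 diagonals, which hold the open circles other than ZK185.9 and also the longer genes F55H12.7 and acly-1.

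Besides daf-16, 4 longer genes fell in the mutant. The lysozyme gene lys-7, a known DAF-16 target that acts in defence against bacteria, stood at 56.0 and 66.3 FPKM in d16_hns, against 178 and 181 FPKM in N2_hns. The wild-type libraries were nearly equal and lay well above both mutant libraries. The level was 2.94-fold lower in the mutant (-1.54 ± 0.15 SE, limma adjusted p = 0.0225). Also lower was the C-type lectin gene clec-222, of a family of sugar-binding proteins with many members in gut defence. It stood at 28.4 and 29.5 FPKM in d16_hns, against 72.4 and 65.1 FPKM in N2_hns. The gap was 2.38-fold (-1.22 ± 0.09, limma adjusted p = 0.00715). The groups did not overlap for either gene, and clec-222 passed in 20 of the 23 alternatives tried and lys-7 in 18. Of the 4 fits without 1 hns-food library, clec-222 passed in 2 and lys-7 in 0. The highest adjusted p by limma in any alternative was 0.0875 for clec-222 and 0.181 for lys-7.

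K11D12.13 and Y54G2A.36, which carry no gene name in the reference annotation, also fell. K11D12.13 stood at 160 and 165 FPKM in d16_hns, against 286 and 286 FPKM in N2_hns, 1.76-fold lower (-0.81 ± 0.07, limma adjusted p = 0.0189). Y54G2A.36 stood at 21.4 and 22.5 FPKM in d16_hns, against 41.1 and 39.7 FPKM in N2_hns, 1.84-fold lower (-0.85 ± 0.07, limma adjusted p = 0.0109). In both genes the spread within a genotype was small beside the gap between genotypes. Without 1 hns-food library neither passed, and the highest limma adjusted p over the alternatives was 0.171 for K11D12.13 and 0.122 for Y54G2A.36.

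In the mutant 13 longer genes rose, and 12 of them were measured in both genotypes. By fold, the change was greatest for F54F7.9, a gene on chromosome X with no name. It stood at 11.89 and 9.70 FPKM in d16_hns, against 2.06 and 1.58 FPKM in N2_hns, 5.93-fold higher (2.06 ± 0.21, limma adjusted p = 0.0273). F54F7.3, with a neighbouring systematic name, stood at 198 and 173 FPKM in d16_hns, against 93.7 and 90.8 FPKM in N2_hns, 2.01-fold higher (1.00 ± 0.11, limma adjusted p = 0.04). The groups did not overlap for either gene. The calcium-binding protein gene cex-1, named for calexcitin, stood at 61.8 and 48.3 FPKM in d16_hns, against 18.6 and 19 FPKM in N2_hns, 2.93-fold higher (1.49 ± 0.16, limma adjusted p = 0.0335). The wild-type libraries agreed closely and the mutant libraries differed more, yet both lay far above them.

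Infection response genes were among those that rose. F35E12.5, named irg-5 in the reference annotation and widely used as a readout of innate immune signalling through the p38 kinase PMK-1, stood at 255 and 296 FPKM in d16_hns, against 105 and 107 FPKM in N2_hns. It was 2.60-fold higher in the mutant (1.37 ± 0.15, limma adjusted p = 0.0424). ZK6.11, named irg-8, stood at 292 and 328 FPKM in d16_hns, against 187 and 198 FPKM in N2_hns, 1.61-fold higher (0.68 ± 0.08, limma adjusted p = 0.0424). A lysozyme gene, lys-1, stood at 534 and 542 FPKM in d16_hns, against 351 and 386 FPKM in N2_hns, 1.46-fold higher (0.55 ± 0.06, limma adjusted p = 0.0466). Thus lys-1 and lys-7, which belong to the same family, changed in opposite directions, and in all 3 genes that rose the lower mutant library lay above the higher wild-type library.

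The phosphatase gene scpl-1 had the lowest p among the longer genes that rose. It stood at 123 and 128 FPKM in d16_hns, against 73.7 and 70.8 FPKM in N2_hns, 1.74-fold higher (0.79 ± 0.05, limma adjusted p = 0.00541), and passed in 20 of 23 alternatives. It overlaps 3 annotated genes in the reference, and with the counting by strand not stated their fragments cannot be told apart. K03E5.2, named clik-3 for its calponin-like repeats, stood at 161 and 143 FPKM in d16_hns, against 88.4 and 83.2 FPKM in N2_hns, 1.77-fold higher (0.82 ± 0.10, limma adjusted p = 0.0466). F31F7.1 stood at 108 and 117 FPKM in d16_hns, against 66.1 and 56.3 FPKM in N2_hns, 1.84-fold higher. The 2 genotypes were clearly apart in each of these genes, and F31F7.1 had a limma adjusted p of 0.04.

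The remaining longer genes that rose stood under 20 FPKM in every hns-food library. K11H12.4 stood at 19.6 and 17.4 FPKM in d16_hns, against 8.22 and 9.07 FPKM in N2_hns, 2.14-fold higher. T20D4.10 stood at 6.79 and 5.38 FPKM in d16_hns, against 2.05 and 1.75 FPKM in N2_hns, 3.2-fold higher. F35E12.2 stood at 7.05 and 7.11 FPKM in d16_hns, against 2.13 and 1.7 FPKM in N2_hns, 3.70-fold higher, and overlaps 2 other annotated genes. The limma adjusted p was 0.04 for K11H12.4 and F35E12.2 and 0.0466 for T20D4.10, and the groups did not overlap. F55H12.7 was listed at 0 in both N2_hns libraries, against 12.2 and 8.74 FPKM in d16_hns, so it has no fold (limma adjusted p = 0.0218). Apart from scpl-1, none of the 13 genes passed in any fit without 1 hns-food library, with highest limma adjusted p of 0.183 for F55H12.7 to 0.265 for T20D4.10 and lys-1.

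**Figure D2:**
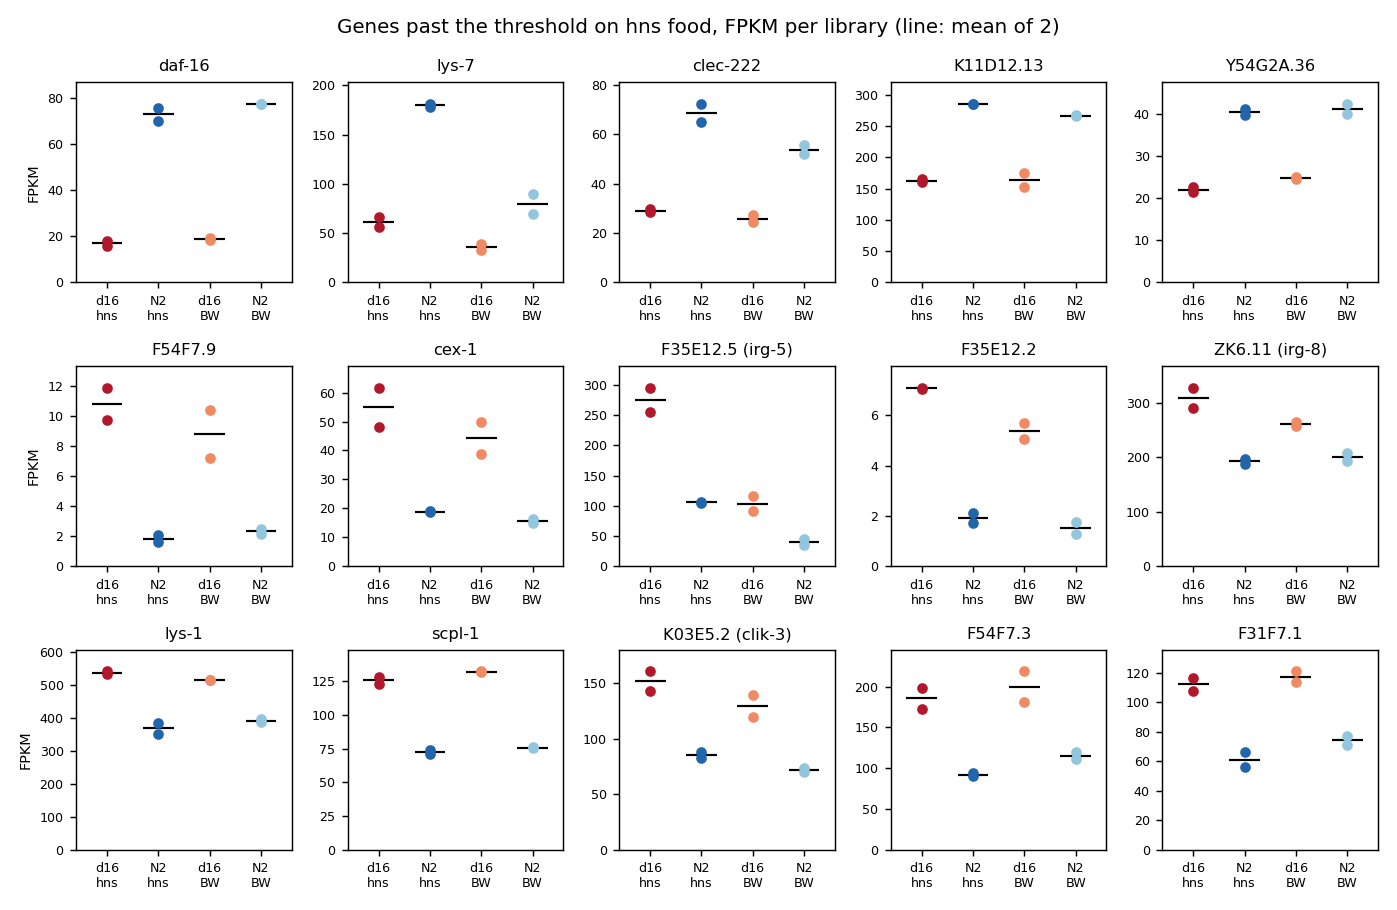
FPKM of 15 longer genes past the threshold on hns food, 1 panel per gene with its own y axis from 0; each point is a library of d16_hns, N2_hns, d16_BW or N2_BW and each line the mean of 2. In all 15 genes both d16_hns libraries lie on 1 side of both N2_hns libraries, as 255 and 296 FPKM lie above 105 and 107 FPKM in F35E12.5. This follows largely from the choice of genes, as most were named only if the groups did not overlap.

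Leaving short transcripts out of the fit added 6 genes, chosen after their values were seen. T22D1.17 stood at 53.9 and 50.1 FPKM in d16_hns, against 2.84 and 7.42 FPKM in N2_hns, 10.1-fold higher (3.22 ± 0.42, limma adjusted p = 0.0394 in this fit and 0.074 with short transcripts kept). It overlaps T22D1.8, and on BW25113 food it stood at 4.69 and 2.74 FPKM in d16_BW and at 2.86 and 5.30 FPKM in N2_BW. The high level was thus confined to d16_hns among these 8 libraries, but the test of the difference between foods did not pass (3.32 ± 0.60). Y79H2A.2 (2.17-fold), Y53H1B.2 (1.52-fold) and K02B7.3 (1.47-fold) were higher, with limma adjusted p of 0.0394, 0.0394 and 0.0473 in this fit. Y68A4A.13 stood at 10.6 and 12.71 FPKM in d16_hns, against 39.3 and 34.4 FPKM in N2_hns, 3.15-fold lower (limma adjusted p = 0.0394 in this fit). The gene acly-1, for the ATP citrate lyase that makes cytosolic acetyl-CoA, was listed at 0 in both d16_hns libraries, against 14.1 and 6.81 FPKM in N2_hns (limma adjusted p = 0.0392 in this fit). On BW25113 food acly-1 stood at 10.3 and 23.9 FPKM in d16_BW and at 14.4 and 19.4 FPKM in N2_BW. A further row, D1005.1, was placed at the same position and may be the same gene under its systematic name. The values of that row are not given, so the 0 of acly-1 may not hold for the gene as a whole. An exact 0 in this kind of file can be a failed estimate, so acly-1 is given as listed, without a fold.

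Among the genes past the threshold, the largest differences were those of short RNAs listed at 0 in both hns-food libraries of 1 genotype. Of the 34 genes past the threshold, 16 were listed at 0 in a whole group, 11 of them higher and 5 lower in the mutant. Each of the 16 met the rule for inclusion only through the group in which it was high, so its inclusion was not independent of its difference. A non-coding RNA of 91 nt, annotated on clone Y40H7A, stood at 662 and 693 FPKM in d16_hns and was listed at 0 in the other 6 libraries. C16D9.13, of 96 nt, was listed at 0 in d16_hns, against 370 and 360 FPKM in N2_hns. T23D8.11, a small nucleolar RNA of 101 nt, was listed at 522 and 546 FPKM in d16_hns, against 0 in N2_hns. T23D8.11 was not at 0 in wild-type worms on BW25113 food, with 220 and 182 FPKM in N2_BW. These genes too are given as listed and without a fold.

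Further RNAs of this kind were F35E12.13, Y37E3.22, C50C3.13, K02C4.8, F42G8.16 and Y95B8A.16, higher in the mutant, and F46A9.12, linc-28, K06A4.15 and F46F11.11, lower. In 10 of the 11 genes at 0 in N2_hns, the FPKM of replicate 1 of d16_hns was between 0.934 and 0.956 of that of replicate 2, the exception being F55H12.7 at 1.40. For comparison, the commonest quotient of these 2 libraries among low coding genes was 0.99, found in 130 of 937 genes. What share of a single fragment these values stand for was not tested. ZK185.9, of 215 nt, was measured in all 4 libraries, at 92.8 and 95.5 FPKM in d16_hns, against 19.2 and 22.9 FPKM in N2_hns (4.47-fold higher, limma adjusted p = 0.0218). It overlaps ZK185.2.

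Of the genes that DAF-16 is known to activate, 1 passed the threshold, lys-7. The list held 40 genes, of which 31 were high enough to be included and 24 of these lay below 0, where 51.5% of all genes did. Their median difference was -0.32, against -0.0048 for all genes, and 14 were lower at an unadjusted p under 0.05, where 3.29% of all genes were. The median stayed between -0.25 and -0.37 in the fits without 1 hns-food library and under the 3 other scalings. A share of 1 in 31 is to be read beside the 0.0713% of all genes called lower.

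Single readout genes of this list were low in the mutant without passing. The metallothionein gene mtl-1 stood at 10.2 and 4.2 FPKM in d16_hns, against 120 and 31.3 FPKM in N2_hns. The difference of -3.04 ± 0.69 was the lowest of the list, but the wild-type libraries lay far apart (limma adjusted p = 0.287). The mitochondrial superoxide dismutase gene sod-3 stood at 2.77 and 2.02 FPKM in d16_hns, against 3.80 and 3.80 FPKM in N2_hns (-0.51 ± 0.19, limma adjusted p = 0.589). The small heat shock protein gene hsp-12.6 stood at 2.15 and 1.13 FPKM in d16_hns, against 4.03 and 4.38 FPKM in N2_hns (-1.0 ± 0.21, limma adjusted p = 0.257). In all 3 genes both mutant libraries lay below both wild-type libraries. With so few libraries this also occurs in genes with no clear difference, such as dod-3 (limma unadjusted p = 0.452). The share of all genes without overlap is not given, so here and below lack of overlap is a description only.

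Further members of the list, some of them abundant, also lay below 0 without passing. The small heat shock protein gene sip-1 stood at 1127 and 1163 FPKM in d16_hns, against 1430 and 1572 FPKM in N2_hns (-0.39 ± 0.08, limma adjusted p = 0.223). The saposin-like antimicrobial gene spp-1 stood at 539 and 522 FPKM in d16_hns, against 724 and 655 FPKM in N2_hns (-0.38 ± 0.08, limma adjusted p = 0.227). The alcohol dehydrogenase gene sodh-1 stood at 20.4 and 14.5 FPKM in d16_hns, against 48.0 and 28.4 FPKM in N2_hns (-1.06 ± 0.26, limma adjusted p = 0.328). The gluconeogenesis gene pck-1, for phosphoenolpyruvate carboxykinase, gave -0.48 ± 0.11 and icl-1, for the glyoxylate cycle enzyme isocitrate lyase, gave -0.46 ± 0.18 (limma adjusted p = 0.326 and 0.627). Again the groups did not overlap.

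Other known targets lay on both sides of 0. The ferritin gene ftn-1 gave -0.82 ± 0.33 at levels of 0.116 and 1.08 FPKM in d16_hns, against 2.19 and 1.27 FPKM in N2_hns, and dod-6 gave -0.79 ± 0.39 and dod-3 -0.32 ± 0.40 (limma adjusted p of 0.629 to 0.895). In these 3 genes the groups did not overlap. The second metallothionein gene, mtl-2, stood at 1959 and 1887 FPKM in d16_hns, against 1896 and 2011 FPKM in N2_hns (-0.02 ± 0.12). The catalase genes ctl-1 (0.14 ± 0.20) and ctl-2 (0.11 ± 0.11) and the heat shock gene hsp-16.2 (0.56 ± 0.25) lay above 0, with limma adjusted p of 0.673 to 0.921. For hsp-16.2 both d16_hns libraries, at 4.44 and 4.57 FPKM, lay above both N2_hns libraries, at 3.07 and 2.43 FPKM. The groups overlapped for ctl-1 and ctl-2. These 3 genes have close copies in the genome, so their fragments are assigned with uncertainty. The gene scl-1, often cited as a DAF-16 target, reached 0.0873 FPKM at most in the hns-food libraries and was not included.

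The pud genes, whose proteins are known to be abundant when DAF-2 signalling is low, lay below 0 in 4 of 4. The gene pud-3 stood at 832 and 818 FPKM in d16_hns, against 1759 and 1493 FPKM in N2_hns (-0.97 ± 0.17, limma adjusted p = 0.182). The gene pud-4 stood at 534 and 431 FPKM in d16_hns, against 1164 and 846 FPKM in N2_hns (-1.05 ± 0.21, limma adjusted p = 0.214). Both genes were higher in N2_hns than in d16_hns in every pair of libraries. On BW25113 food pud-3 differed by -1.59 (limma adjusted p = 0.0396).

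**Figure D3:**
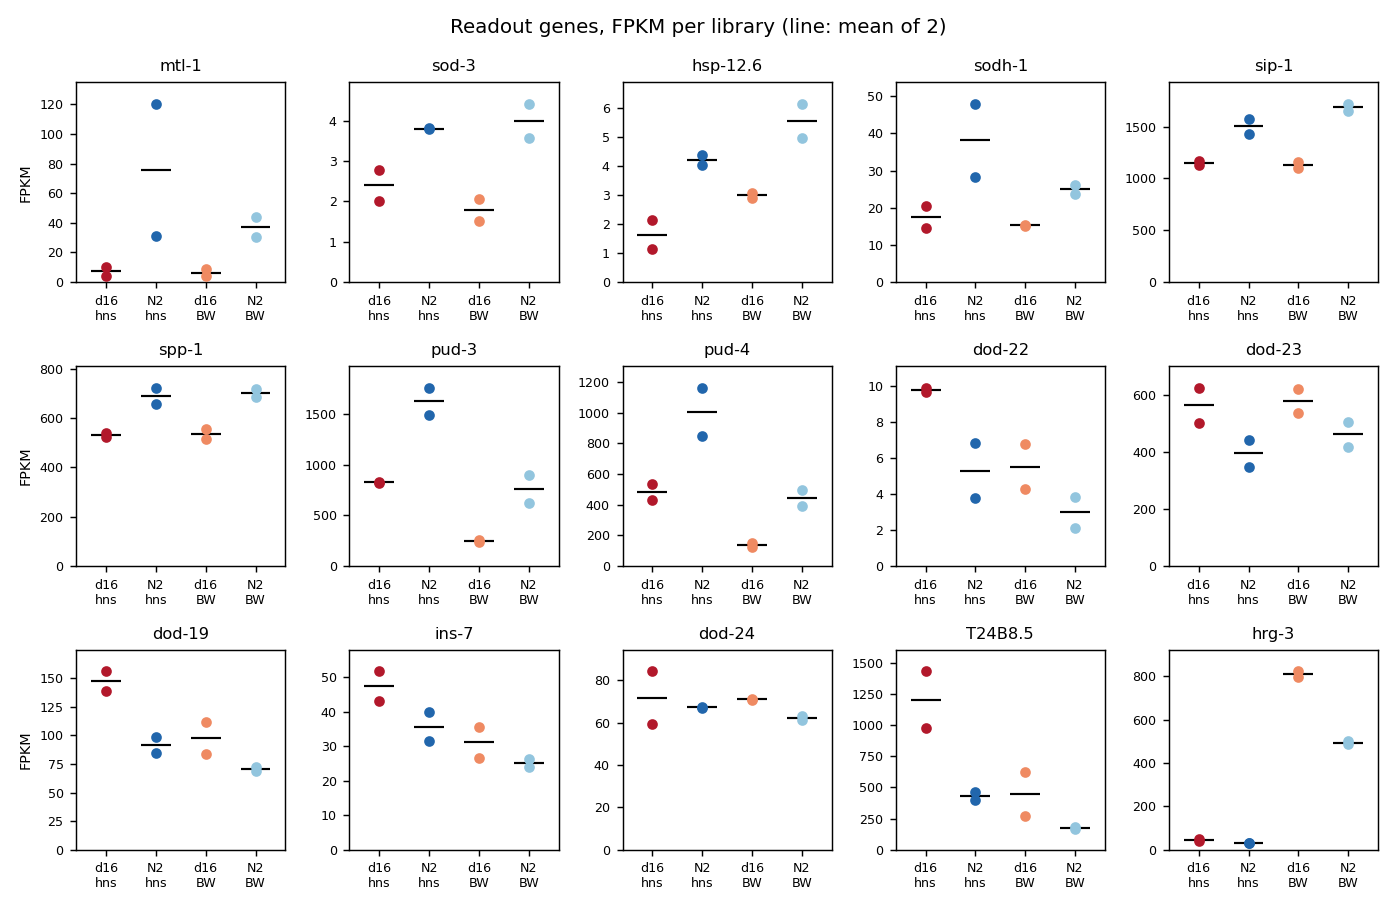
FPKM of 15 readout genes, 1 panel per gene with its own y axis from 0; points are libraries and lines the mean of 2, with d16_hns left of N2_hns and d16_BW left of N2_BW. The panel of mtl-1 shows 10.2 and 4.2 FPKM in d16_hns beside 120 and 31.3 FPKM in N2_hns, and the panel of hrg-3 shows that its levels on hns food are far below those on BW25113 food in both genotypes.

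Genes that fall when DAF-16 is active lay higher in the mutant, with 0 past the threshold in limma and 4 higher at an unadjusted p under 0.05, where 4.71% of all genes were. Of 18 listed genes 14 were included, and 13 of these lay above 0, with a median of 0.25. The median stayed between 0.18 and 0.33 in the fits without 1 hns-food library and under the other scalings. The gene dod-19 stood at 156 and 139 FPKM in d16_hns, against 98.4 and 84.8 FPKM in N2_hns (0.68 ± 0.15, limma adjusted p = 0.26). The lectin gene clec-186 stood at 92.4 and 88.9 FPKM in d16_hns, against 68.2 and 68.8 FPKM in N2_hns (0.40 ± 0.05, limma adjusted p = 0.0746). The insulin-like peptide gene ins-7, whose product is known to activate DAF-2, stood at 51.6 and 42.9 FPKM in d16_hns, against 31.6 and 39.8 FPKM in N2_hns (0.40 ± 0.18, limma adjusted p = 0.67). The groups did not overlap in these 3 genes.

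Other members lay above 0 with wider spread. The gene dod-22 stood at 9.65 and 9.92 FPKM in d16_hns, against 6.85 and 3.75 FPKM in N2_hns (0.82 ± 0.33), dod-17 gave 0.35 ± 0.22 and dod-24 gave 0.07 ± 0.15 (limma adjusted p of 0.624 to 0.954). For dod-24 the d16_hns libraries, at 59.2 and 84.2 FPKM, enclosed both N2_hns libraries, and without replicate 2 of d16_hns its difference was -0.18. The guanylate cyclase gene gcy-18 was the only member below 0 (-0.44 ± 0.25).

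Genes of the infection response, which partly overlap the last list, lay mostly above 0. Of 34 listed genes 28 were included, and 2 of these rose, F35E12.5 and ZK6.11, where 0.171% of all genes did. A total of 24 lay above 0, with a median of 0.28, and 12 were higher at an unadjusted p under 0.05, beside 4.71% of all genes. The list's FPKM summed to 3494 and 2941 in d16_hns, against 1997 and 1817 in N2_hns. The largest single part of that sum was T24B8.5, a ShK-domain peptide gene and PMK-1 readout, at 1432 and 979 FPKM in d16_hns, against 465 and 401 FPKM in N2_hns (1.45 ± 0.38, limma adjusted p = 0.376). C17H12.8 gave 0.84 ± 0.15, F08G5.6 (irg-4) 0.96 ± 0.28 and F35E12.10 0.62 ± 0.10, with limma adjusted p of 0.178 to 0.431. In these 4 genes too the mutant libraries lay above the wild-type libraries.

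Lysozymes and lectins lay on both sides of 0. Of 10 lysozyme genes 1 rose and 1 fell, beside 0.171% higher and 0.0713% lower among all genes. A total of 6 lysozyme genes lay below 0, and lys-2 (0.51 ± 0.11) and lys-3 (1.54 ± 0.55) lay above 0 without passing (limma adjusted p = 0.279 and 0.565). At an unadjusted p under 0.05, 4 lysozyme genes were higher and 1 lower. Of 91 C-type lectin genes clec-222 fell and 0 rose by the limma threshold, 12 being higher and 10 lower at an unadjusted p under 0.05, and the median was 0.01. Over all genes 0.0713% fell and 0.171% rose by that threshold, and 4.71% were higher and 3.29% lower at an unadjusted p under 0.05. Among 75 antimicrobial peptides and effectors 0 passed in limma, 9 being higher and 8 lower at an unadjusted p under 0.05. The fungus-induced peptide gene fip-6 (1.71, limma adjusted p = 0.109) and the caenacin gene cnc-2 (1.33, limma adjusted p = 0.188) were chosen after their values were seen. Both lay above 0 in the mutant, but of the 75 genes 36 lay above 0 and 39 below, with a median of -0.02. The gene fipr-19 was the lowest of the list, at -2.78.

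Apart from daf-16, no gene of the insulin-like signalling pathway passed the threshold. Of 34 other included pathway genes 0 passed in limma, 0 were higher and 4 lower at an unadjusted p under 0.05 (4.71% and 3.29% of all genes), and the median was -0.04. The receptor gene daf-2 stood at 21.8 and 21.8 FPKM in d16_hns, against 22.8 and 20.5 FPKM in N2_hns (0.01 ± 0.09, limma adjusted p = 0.998). The sign of this difference turned with equal FPKM sums, at -0.021. The kinase gene akt-2, whose product phosphorylates DAF-16, stood at 5.89 and 5.27 FPKM in d16_hns, against 10.02 and 8.17 FPKM in N2_hns (-0.61 ± 0.13, limma adjusted p = 0.244). Its partner akt-1 gave -0.11 ± 0.07 and the PI3-kinase gene age-1 -0.02 ± 0.08. The groups did not overlap for akt-2.

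Insulin-like peptide genes, the ligands of DAF-2, had a median of -0.26 over 29 included genes, with 21 below 0 and 0 past the limma threshold. At an unadjusted p under 0.05, 6 were lower and 0 higher, beside 3.29% lower and 4.71% higher among all genes. The widest gaps were in ins-35, at 1.19 and 2.11 FPKM in d16_hns, against 18.4 and 5.15 FPKM in N2_hns, and in ins-19, at 3.44 and 2.42 FPKM in d16_hns, against 12.9 and 8.40 FPKM in N2_hns (limma adjusted p = 0.502 and 0.287). The higher wild-type value was replicate 1 in both genes. Without that library the median of the list was -0.12, and without replicate 2 of N2_hns it was -0.66.

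Genes that respond strongly to this food in the series were also read for genotype. The heme carrier gene hrg-3 stood at 48.0 and 40.9 FPKM in d16_hns, against 29.8 and 29.1 FPKM in N2_hns (0.57 ± 0.08, limma adjusted p = 0.0994). The arginine kinase gene F44G3.2 stood at 138 and 120 FPKM in d16_hns, against 100 and 86.0 FPKM in N2_hns (0.47 ± 0.12, limma adjusted p = 0.372). The gene cth-1, for the enzyme that makes cysteine from cystathionine, stood at 216 and 198 FPKM in d16_hns, against 157 and 174 FPKM in N2_hns (0.32 ± 0.13, limma adjusted p = 0.63). The mutant libraries were the higher ones in each of these genes, without passing the threshold. On BW25113 food hrg-3 was also higher in the mutant and passed (0.71, limma adjusted p = 0.0448). F44G3.2 (0.40) and cth-1 (0.10) did not pass on that food (limma adjusted p = 0.371 and 0.869).

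Among the 14 heme and iron genes 0 passed in limma, with 3 higher and 1 lower at an unadjusted p under 0.05 (4.71% and 3.29% of all genes) and a median of 0.09. The metal transporter gene smf-3 stood at 12.66 and 6.31 FPKM in d16_hns, against 3.35 and 3.05 FPKM in N2_hns (1.25 ± 0.37, limma adjusted p = 0.45). Of the lipid genes, the desaturase gene fat-7 stood at 63.0 and 58.3 FPKM in d16_hns, against 38.3 and 49.1 FPKM in N2_hns (0.47 ± 0.12, limma adjusted p = 0.362). The desaturase gene fat-5 gave 0.02 ± 0.24 and acdh-1, for the acyl-CoA dehydrogenase of the propionate shunt, gave -0.05 ± 0.08. Their groups overlapped, and the sign of fat-5 turned with equal FPKM sums (-0.0094).

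Markers of tissues were read for the cell types that whole worms hold. Muscle markers (25 genes, median 0.04), germline markers (34 genes, 0.03) and intestine markers (24 genes, -0.04) lay close to the median of all genes. Of the 28 oocyte and eggshell genes 22 lay below 0, with a median of -0.08. That median was 0.0003 without replicate 1 of d16_hns and 0.0008 without replicate 2 of N2_hns. Of the 6 vitellogenins 5 lay above 0, with a median of 0.16. In each of these lists 0 genes passed in limma, where 0.242% of all genes did, so for lists this short the count says little. At an unadjusted p under 0.05, 3 oocyte and eggshell genes were higher and 3 lower, and 1 intestine marker was higher and 2 lower. By that measure 1 muscle marker and 1 vitellogenin were higher, and 0 germline markers passed. Of all genes 4.71% were higher and 3.29% lower.

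Markers of neurons lay lower in the mutant as a list, but hardly so without replicate 1 of N2_hns. Of 24 neuron markers 21 lay below 0, with a median of -0.35, and their FPKM summed to 807 and 735 in d16_hns, against 937 and 778 in N2_hns. Without replicate 1 of N2_hns the median was -0.02, and without replicate 2 of N2_hns it was -0.63. Of 100 neuropeptide genes 75 lay below 0, with a median of -0.16. That median was 0.03 without replicate 1 of N2_hns and -0.44 without replicate 2 of N2_hns. By limma 0 members of either list passed, and 1 neuron marker and 6 neuropeptide genes were lower at an unadjusted p under 0.05, where 3.29% of all genes were.

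Cuticle and sperm genes also moved with single libraries. The 29 hypodermis and cuticle genes had a median of -0.16, which was 0.07 without replicate 2 of d16_hns, and the adult collagen gene col-19 stood at 1415 and 1550 FPKM in d16_hns, against 665 and 1420 FPKM in N2_hns. The 48 sperm genes, many of them near-identical major sperm protein genes, had a median of 0.11, which was -0.16 without replicate 1 of either group. They summed to 266 and 185.6 FPKM in d16_hns, against 177 and 251 FPKM in N2_hns, so the genotypes overlapped. Of 18 large chaperones 17 lay below 0, in a range of -0.17 to 0.03 with a median of -0.11, which was -0.03 without replicate 1 of d16_hns. The part of cell content in the list medians was not tested. For replicate 1 of N2_hns only medians without it were read, and why it differed was not tested.

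**Figure D4:**
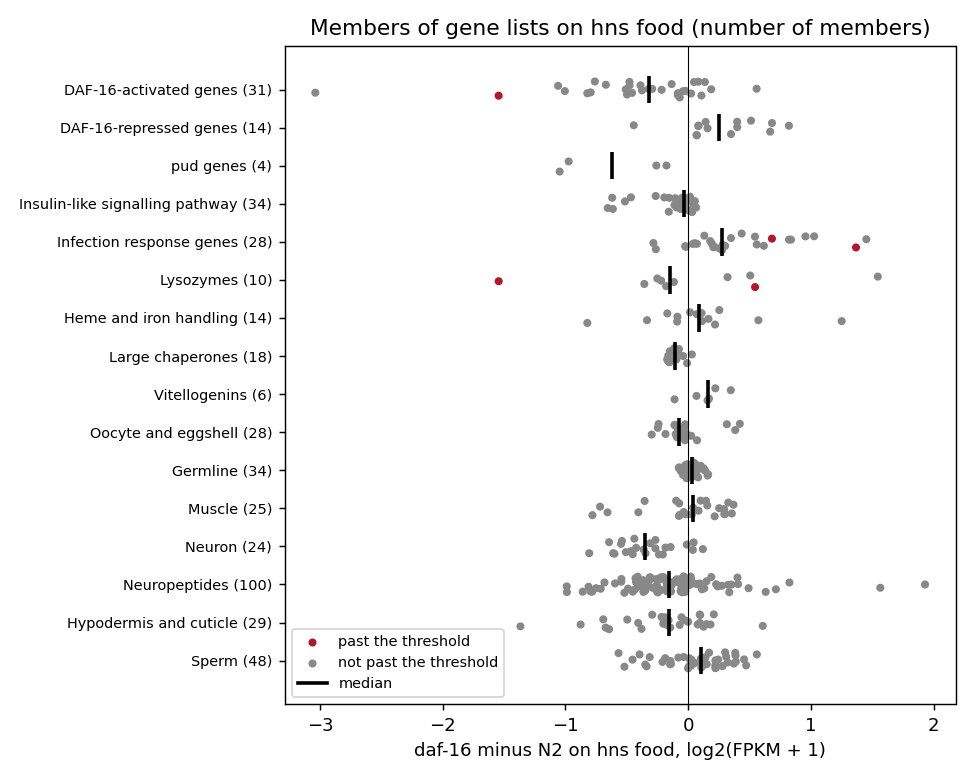
Differences of d16_hns minus N2_hns in log2(FPKM + 1) for the members of 16 gene lists; each point is a gene, red where it passed the threshold over all genes, and each bar is the median of a list. DAF-16-activated genes centre at -0.32 and DAF-16-repressed and infection response genes at 0.25 and 0.28, while muscle and germline markers centre at 0.04 and 0.03.

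The genotype difference on hns food was set beside that on BW25113 food. The contrasts have no library in common but share the estimate of each gene's spread. Passing on hns food is thus not independent of passing on BW25113 food. On BW25113 food 29 of the 14025 genes passed (0.207%), 16 higher (0.114%) and 13 lower (0.0927%). With short transcripts left out it was 28 of 13192 (0.212%), 17 higher (0.129%) and 11 lower (0.0834%). Of the 24 longer genes called on hns food, 23 had the same sign on BW25113 food, and 14 were called there in the same direction, which is 58.3% of the calls on hns food and 50% of those on BW25113 food. Over all longer genes 8209 (62.2%) had the same sign on both foods, with a Pearson's r of 0.388 and a Spearman's rho of 0.371 across genes, which are not independent replicates.

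Levels on the 2 foods could differ while the genotype difference was similar. F35E12.5 stood at 116 and 90.5 FPKM in d16_BW, against 35.3 and 44.4 FPKM in N2_BW, with a difference of 1.35 on BW25113 food (limma adjusted p = 0.0448) beside 1.37 on hns food. The level in d16_BW was thus near that in N2_hns. The lysozyme gene lys-7 stood at 33 and 39.2 FPKM in d16_BW, against 69.8 and 90.1 FPKM in N2_BW. Its difference there was -1.12 beside -1.54 on hns food, and the difference between foods was -0.42 ± 0.21. On BW25113 food its limma adjusted p was 0.0755, and with short transcripts left out it passed at 0.0343. For cex-1 the difference was 1.45 on BW25113 food (limma adjusted p = 0.0396), for clec-222 -1.04 (limma adjusted p = 0.0162) and for scpl-1 0.79 (limma adjusted p = 0.00538). Each of these genes pointed the same way on both foods.

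The difference of the genotype effect between foods was tested directly. A total of 8 genes passed (0.057%), 6 higher (0.0428%) and 2 lower (0.0143%), all of them short or unmatched transcripts listed at 0 in a whole group. In the fit without such transcripts 0 genes passed, the lowest limma adjusted p being 0.394, and 486 (3.68%) passed at an unadjusted p under 0.05. This does not show that the genotype acts alike on both foods. List medians were side by side for DAF-16-activated genes (-0.32 on hns food and -0.33 on BW25113 food), DAF-16-repressed genes (0.25 and 0.30) and infection response genes (0.28 and 0.27). For hypodermis and cuticle genes they were -0.16 and 0.71 and for sperm genes 0.11 and 0.62. Between the foods no list was tested.

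**Figure D5:**
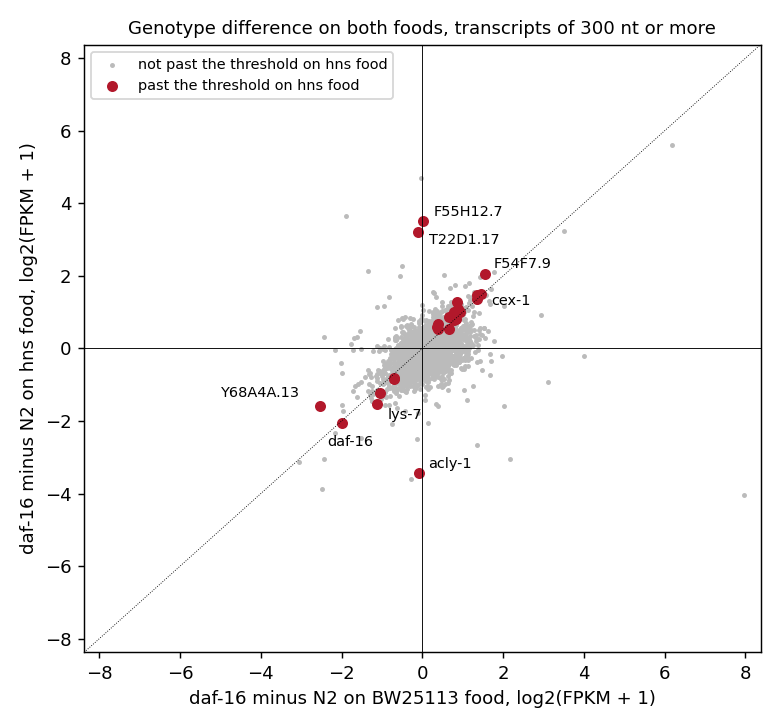
Each point is a gene with a transcript of 300 nt or more; the x axis is d16_BW minus N2_BW and the y axis d16_hns minus N2_hns, both in log2(FPKM + 1), and red points passed the threshold on hns food. Most red points lie near the dotted line of equal difference, while T22D1.17 (3.22 on hns food, -0.10 on BW25113 food), F55H12.7 and acly-1 lie near 0 on BW25113 food.

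By chromosome, 10 of the 24 longer genes called on hns food lay on V, 5 on I, 3 each on IV and X, 2 on II and 1 on III. Of all included genes with a match in the reference annotation, 19.5% lay on V and 16% on I. The gene daf-16 itself lies on chromosome I. Differences between the strains outside daf-16 were not tested.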

How the data were processed

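RNA of whole worms was sequenced in 8 libraries. The deposited values were FPKM in 1 table for all libraries, made by the authors with TopHat2 2.0.11 and Cufflinks 2.2.1 against ce10 as the genome build (per the submitters' processing notes). Per the labels' protocols, RNA came from an RNeasy kit and libraries from a Lexogen SENSE kit for mRNA. Which annotation was used, and whether strand was, is not given in the sources used here. Columns of the table were matched to samples by title.

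FPKM were used as log2(FPKM + 1), which shrinks differences at low FPKM. All 14564 genes that reached 1 FPKM in 2 or more of the 8 libraries entered 1 limma-trend fit (limma 3.58.1, R 4.3.3) with a mean per group, so that the 4 groups share the estimate of spread (4 residual and 2.32 prior degrees of freedom, or 3.46 prior with short transcripts left out). Tests were two-sided moderated tests with Benjamini-Hochberg adjustment over all genes tested, at a threshold of 0.05. The script was tested on simulated data. Names, lengths, chromosomes and the positions behind the overlaps of genes came from the WBcel235 annotation, which is not ce10. By name, 13751 of 14025 included genes (98.0%) matched.

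Of the genes included, 592 reached 1 FPKM in exactly 2 of the 4 hns-food libraries, 111 of them in both d16_hns and 135 in both N2_hns libraries. The second-highest of the 4 values was 1.00006 FPKM in the gene just inside the rule and 0.999 FPKM in the gene just outside. Lists are described by counts and medians with no set test. The genes named are daf-16, up to 15 in each direction with the largest difference past the threshold (with no overlap of the groups and a mean of 5 FPKM or more in the higher one), list members past the threshold, genes of the test between foods, and a fixed set of readout genes. Genes and lists were chosen with earlier results of these data known. Other scalings, pseudocounts, filters, fits and left-out libraries were tried. Promoter motif shares were planned but not computed, because no genome sequence of this build was used here.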

Additional observations from a re-analysis of the deposited data

Results flagged for a closer look

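The genotype difference differed between the foods past the threshold in 8 genes (limma adjusted p of 5.44e-06 to 0.0464), all of them transcripts of 91 nt to 157 nt. The values are the difference on hns food minus that on BW25113 food, in log2(FPKM + 1), and were not interpreted as folds because each gene is listed at 0 in a whole group.

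F35E12.13 gave 11.18, with 44 and 46.1 FPKM in d16_hns and 53.8 and 45.6 FPKM in N2_BW and 0 in the other 4 libraries. The 91 nt RNA of clone Y40H7A gave 9.41, and T23D8.11 gave 7.80, being listed at 0 in N2_hns but at 182 FPKM or more in the other 6 libraries. F42G8.16 gave 3.24, Y95B8A.16 gave 2.74 and F55B12.14 gave 2.41, each listed above 0 in d16_hns and at 0 in the other 6 libraries. C16D9.13 gave -8.52 and linc-28 gave -5.76, each listed above 0 in N2_hns and at 0 elsewhere. In the 6 genes above 0 in a single group both libraries of the group were listed at similar levels. With transcripts under 300 nt left out, 0 genes passed this test in limma.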

How the results depend on the processing

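The difference of daf-16 lay between -2.13 and -1.84 and passed in every alternative tried. The 34 calls on hns food (24 higher, 10 lower) numbered 11 to 35 in the fits without 1 library (4 to 24 higher, 6 to 14 lower), 22 without genes listed at 0 in any library (6 lower), and 13 higher without a filter on low values. Same-numbered samples deviated with correlations of 0.0219 to 0.161, so the replicate number was not taken to pair the samples. With the replicate number as a block 36 genes passed, 16 of them lower. With short transcripts left out, the 24 calls (17 higher, 7 lower) numbered 1 to 21 without 1 library (0 to 11 higher, 1 to 10 lower), 100 with the replicate block (56 higher, 44 lower), 15 with quantile normalization (10 higher), 14 with median-ratio scaling (9 higher) and 8 higher with only the 4 hns-food libraries; these alternatives were chosen after seeing the data. The 29 calls on BW25113 food numbered 11 to 20 without 1 library, 16 with a pseudocount of 5, 15 without a filter and with quantile normalization, and 9 without the mean-variance trend. The 8 calls between foods numbered 9 to 20 without 1 library, 5 with a minimum of 5 FPKM, and 0 without transcripts under 300 nt or without genes listed at 0, each alone or together. Signs turned without 1 hns-food library for dod-24 (-0.18 to 0.32), daf-2 (-0.062 to 0.0855), fat-5 (-0.19 to 0.24) and acdh-1 (-0.11 to 0.0067), and with equal FPKM sums for daf-2 (-0.021) and fat-5 (-0.0094). The cause was not tested. With 2 libraries a group and no counts, depth per gene is unknown, and a gene that did not pass may still differ. Promoter motif shares were not run.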
